A study of Mus musculus with 5 samples.

Results

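The Cyp4a genes encode cytochrome P450 enzymes that add a hydroxyl group to the terminal (omega) carbon of fatty acids. The 6 symbols Cyp4a10, Cyp4a14, Cyp4a31, Cyp4a32, Cyp4a12a and Cyp4a12b were taken by name from the 32285 genes listed in the files, and all 6 were found. They were followed in hepatocytes from the livers of male wild-type (WT) C57BL/6J mice. Every mouse had been trained for 3 days with 16 h without food overnight and 8 h of daytime feeding, and received food with drinking water containing 20% sucrose on the day of the experiment. The fed animals (0 h) were killed at 13:00 after 4 h of feeding, and the fasted animals lost both food and sucrose water at 13:00 and were killed 4 h later at 17:00, 8 h later at 21:00, 16 h later at 5:00 or 24 h later at 13:00. Each time point was 1 droplet library of 10000 cell barcodes, made with a 3′ tagging kit that counts unique molecular identifiers (UMIs). How many animals each library holds is not given in the sources used here.

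With 1 library per time point no difference has a replicate check, and no test was made. All intervals below are exact 95% intervals that cover counting error only. The fed and 24 h libraries share the clock hour, while at 4, 8 and 16 h the time without food and the clock hour cannot be told apart. All 4 comparisons with the fed state use the same fed library.

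Omega-hydroxylation is a minor route of fatty acid breakdown in the liver that gains weight when fatty acids flood the cell. The hydroxy acid made by a CYP4A enzyme is oxidised further by alcohol and aldehyde dehydrogenases to a dicarboxylic acid, which is shortened in peroxisomes. Cyp4a10 and Cyp4a14 are textbook targets of the fatty acid receptor PPARα, whereas Cyp4a12a and Cyp4a12b are known for higher expression in males and dependence on androgen and growth hormone. CYP4A12 proteins also make the eicosanoid 20-HETE from arachidonic acid.

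The members lie side by side on mouse chromosome 4 (GRCm38, GENCODE M21), within 322557 bases that run from 115299046 to 115621602. In order, Cyp4a12a (ENSMUSG00000066071) occupies 115299046 to 115332815, Cyp4a12b (ENSMUSG00000078597) 115411624 to 115439034, Cyp4a14 (ENSMUSG00000028715) 115486200 to 115496142, Cyp4a10 (ENSMUSG00000066072) 115518264 to 115533649, Cyp4a31 (ENSMUSG00000028712) 115563649 to 115579015 and Cyp4a32 (ENSMUSG00000063929) 115600969 to 115621602. Cyp4a14 is on the minus strand and the other 5 are on the plus strand. The annotation places 13 genes in this stretch, of which 7 are in the files: the 6 members and Cyp4a30b, which had 0 hepatocyte UMIs in all 5 libraries.

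The last 60 coding bases of each member, up to the stop codon, are shown for the resemblance within the family. In 5 of the 6 transcripts a 3′ UTR of 521 to 943 bases follows them, so they do not lie where the tags near the transcript's end are read, and Cyp4a32 is annotated with a UTR of 0 bases. They were read from the GENCODE M21 transcripts. Capitals mark the bases that differ from Cyp4a10 at the same place counted back from the stop codon.
Cyp4a10: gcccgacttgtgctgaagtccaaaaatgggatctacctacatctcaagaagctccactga
Cyp4a31: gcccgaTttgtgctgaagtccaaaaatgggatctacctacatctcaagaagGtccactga
Cyp4a32: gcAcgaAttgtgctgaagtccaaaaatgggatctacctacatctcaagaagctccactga
Cyp4a14: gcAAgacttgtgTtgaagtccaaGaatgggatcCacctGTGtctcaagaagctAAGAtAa
Cyp4a12a: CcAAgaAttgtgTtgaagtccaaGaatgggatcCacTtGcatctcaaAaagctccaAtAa
Cyp4a12b: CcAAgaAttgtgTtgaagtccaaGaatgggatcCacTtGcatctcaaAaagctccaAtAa

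Cyp4a31 and Cyp4a32 each differ from Cyp4a10 at 2 of these 60 bases, Cyp4a14 at 13, and Cyp4a12a and Cyp4a12b at 12, and the last pair are identical to each other here. Over the whole coding sequence Cyp4a10 was 96.6% identical to Cyp4a31 and 97.2% identical to Cyp4a32, Cyp4a12a was 98.5% identical to Cyp4a12b, and Cyp4a10 was 75.2% identical to Cyp4a14 and 80.1% identical to Cyp4a12a. Of the last 500 transcript bases, where 3′ tags are expected, none of the 411 windows of 90 bases in Cyp4a10, Cyp4a14 or Cyp4a31 occurred in any annotated transcript of another member. Cyp4a12a and Cyp4a12b shared 124 of the 411 windows (30.2%), so the split of UMIs between these 2 genes is uncertain. Cyp4a32 has no 3′ UTR in this annotation (0 bases) and shared 193 windows (47.0%) with the transcripts of other members, so its value is uncertain as well. The annotation version used for the deposited counts is not given in the sources used here.

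Hepatocytes were the 28810 of 50000 barcodes with 1000 or more UMIs, 500 or more genes and 2 to 30% mitochondrial UMIs, and they numbered 7826, 4567, 2716, 9125 and 4576 at 0, 4, 8, 16 and 24 h. Levels are given in CPM, a gene's UMIs over all non-mitochondrial UMIs of the hepatocytes of a library, scaled to counts per 1000000. A UMI tags a transcript's 3′ end, so CPM is not divided by transcript length when members are compared. All 7 hepatocyte markers, among them Alb and Ttr, stood at 50 CPM or more in each library. The libraries were not of equal depth: the hepatocytes' median UMI count ranged from 4391 after 16 h to 15005 after 8 h, their median mitochondrial share from 9.79% after 8 h to 19.1% after 4 h, and their summed non-mitochondrial UMIs from 33521626 to 45532684. Summed endothelial markers ran from 11.9 CPM at 8 h to 92.9 CPM in the fed library and summed macrophage markers from 0.118 to 33.5 CPM, both highest in the fed library, and their part in the results was not tested. Of the 50000 barcode sequences 519 (1.04%) occurred in more than 1 library, 282 of them as hepatocytes.

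Cyp4a14 and Cyp4a10 were the abundant members at every time, and both were lowest at 4 h and highest at 24 h. Cyp4a14 stood at 720 CPM in the fed library (711 to 729), 408 after 4 h (402 to 413), 1088 after 8 h (1077 to 1099), 1153 after 16 h (1141 to 1164) and 3267 after 24 h (3249 to 3285). Its level at 24 h was far above the other 4 libraries, and the 8 and 16 h levels lay close together. Cyp4a10 stood at 410 CPM in the fed library (404 to 417), 227 after 4 h (223 to 231), 480 after 8 h (472 to 487), 369 after 16 h (363 to 376) and 1641 after 24 h (1628 to 1654). Its fed, 8 h and 16 h levels lay within a narrow band, with 4 h below and 24 h above it. Among all genes of the library ordered by CPM, Cyp4a14 moved from rank 176 in the fed state to rank 32 at 24 h, and Cyp4a10 from rank 342 to rank 68.

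Cyp4a12a and Cyp4a12b, the male-biased pair, showed the opposite pattern at 24 h. Cyp4a12a stood at 157 CPM in the fed library (153 to 161), 123 after 4 h (120 to 126), 161 after 8 h (157 to 165), 183 after 16 h (179 to 188) and 27.5 after 24 h (25.9 to 29.3). The first 4 levels were similar and the 24 h level was the only low one. Cyp4a12b stood at 61.4 CPM in the fed library (59.0 to 64.0), 33.0 after 4 h (31.3 to 34.7), 47.2 after 8 h (44.9 to 49.5), 50.1 after 16 h (47.8 to 52.6) and 12.9 after 24 h (11.8 to 14.1). Here too the 24 h level was the lowest, and the fed level the highest. Cyp4a12a moved from rank 975 in the fed library to rank 3941 at 24 h.

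Cyp4a31 and Cyp4a32, both close in sequence to Cyp4a10, were minor transcripts in these cells. Cyp4a31 was at 5.58, 5.05, 7.95, 17.1 and 9.29 CPM at 0, 4, 8, 16 and 24 h, resting on 211 to 573 UMIs. It was highest at 16 h (15.7 to 18.5), a time order unlike that of Cyp4a10. Cyp4a32 was at 0.344, 0.747, 0.414, 0.537 and 0.559 CPM, resting on 13, 34, 14, 18 and 21 UMIs. Its ratio of 4 h to fed, a log2 ratio of 1.12 (0.16 to 2.16), was the only one against fed or between successive times whose interval left out no difference, and no further order of its levels is given.

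**Figure D1:**
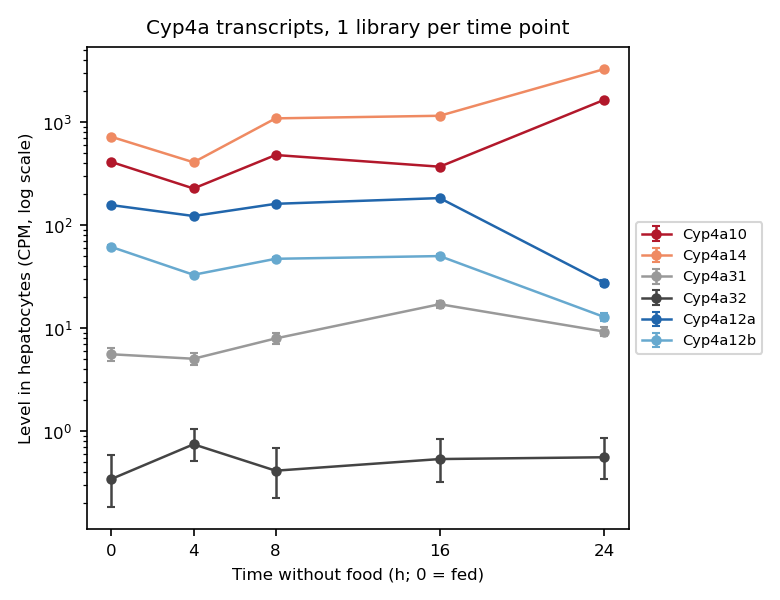
Level of each Cyp4a member in hepatocytes (CPM, log axis) against time without food (h), 1 library per point, with bars for the exact 95% counting interval. Cyp4a10 and Cyp4a14 peak at 1641 and 3267 CPM at 24 h, where Cyp4a12a and Cyp4a12b drop to 27.5 and 12.9 CPM.

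Against the fed library, the members were held to the rule applied to every gene, a difference of at least 2-fold with at least 50 CPM in either library. Cyp4a10, Cyp4a14, Cyp4a12a and Cyp4a12b met the level minimum in all 4 comparisons with fed, and Cyp4a31 and Cyp4a32 never did, so counts of members below concern 4 of the 6. At 4 h 0 of these 4 passed, where 11.7% of 2948 genes did (5.73% higher and 5.97% lower). Their log2 ratios were -0.85 for Cyp4a10 (-0.89 to -0.82), -0.82 for Cyp4a14 (-0.85 to -0.79), -0.35 for Cyp4a12a (-0.40 to -0.30) and -0.90 for Cyp4a12b (-0.99 to -0.80). All 4 were thus lower at 4 h than in the fed library, beside a median of -0.027 over all genes measured. This lower level was short of the 2-fold rule, and 3 of the 4 passed it when only cells with 2 to 15% mitochondrial UMIs were kept, with log2 ratios of -1.51 for Cyp4a10, -1.32 for Cyp4a14 and -1.54 for Cyp4a12b. At 8 h 0 of the 4 passed, where 19.8% of 3019 genes did (7.95% higher and 11.8% lower), and at 16 h 0 of the 4 passed, where 7.35% of 2994 genes did (3.31% higher and 4.04% lower). Cyp4a14 was above the fed level at both times, with log2 ratios of 0.60 (0.57 to 0.62) and 0.68 (0.66 to 0.70). Cyp4a10 was at 0.23 (0.19 to 0.26) after 8 h and at -0.15 (-0.19 to -0.12) after 16 h. The Cyp4a12a ratio at 8 h, 0.042, had an interval that included no difference (-0.011 to 0.095).

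At 24 h all 4 measured members passed the rule, 2 in each direction, where 17.3% of genes passed. Cyp4a10 and Cyp4a14 were at least 2-fold higher than in the fed library, as 6.68% of the 2980 genes measured were. Cyp4a14 was 4.54-fold higher (log2 ratio 2.18, 2.16 to 2.20), the rank 17 increase of 2980 genes, and Cyp4a10 was 4.00-fold higher (log2 ratio 2.0, 1.97 to 2.03), rank 21. Cyp4a12a and Cyp4a12b were at least 2-fold lower, as 10.6% of genes were. Cyp4a12a was 5.68-fold lower (log2 ratio -2.51, -2.60 to -2.41), rank 38 from the bottom, and Cyp4a12b was 4.77-fold lower (log2 ratio -2.25, -2.40 to -2.11), rank 52 from the bottom. These 2 libraries share the clock hour of 13:00. Cyp4a31, below the minimum, had a log2 ratio of 0.73 (0.48 to 0.99) at 24 h and 1.61 (1.38 to 1.85) at 16 h.

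Between successive times the members did not move evenly. From 4 to 8 h Cyp4a10 and Cyp4a14 were higher at log2 ratios of 1.08 (1.04 to 1.12) and 1.42 (1.39 to 1.44), placing them at ranks 26 and 9 of 2797 genes. In that step 1.11% of genes were at least 2-fold higher, 2.22% at least 2-fold lower and 3.32% either, and 2 of the 3 members measured were higher. From 8 to 16 h 0 of 4 members passed while 21.1% of 3059 genes did (11.3% higher and 9.74% lower). Cyp4a14 differed by 0.084 on the log2 scale in that step (0.063 to 0.104), a value that turned to -0.098 with trimmed-mean scaling of the libraries, and Cyp4a10 by -0.38 (-0.41 to -0.34). From 16 to 24 h, where 14.4% of genes passed either way, Cyp4a10 and Cyp4a14 were higher, at 2.15 (2.12 to 2.18) and 1.5 (1.49 to 1.52), where 7.52% of 2991 genes were at least 2-fold higher. Cyp4a10 was rank 9 among the increases of that step and Cyp4a14 rank 64. Cyp4a12a and Cyp4a12b were lower, at -2.73 (-2.83 to -2.64) and -1.96 (-2.11 to -1.81), where 6.92% of genes were at least 2-fold lower. Cyp4a12b entered that count with 50.1 CPM at 16 h, just above the minimum, and several alternatives took it below.

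The make-up of the family shifted accordingly. Cyp4a14 contributed 53.2, 51.2, 61.0, 65.0 and 65.9% of all Cyp4a UMIs at 0, 4, 8, 16 and 24 h. Cyp4a12a contributed 11.6, 15.4, 9.03, 10.3 and 0.555%. Ratios within a library do not depend on how libraries are scaled to each other. The ratio of Cyp4a10 and Cyp4a14 to Cyp4a12a and Cyp4a12b was 5.19 in the fed library (5.06 to 5.31), 4.08 after 4 h, 7.53 after 8 h, 6.52 after 16 h (6.37 to 6.68) and 121 after 24 h (115 to 128). The 24 h library stood far apart from the other 4 in this ratio, whose values ran from 4.08 to 7.53. Cyp4a14 to Cyp4a10 was 1.76 in the fed library (1.72 to 1.79), 1.80 after 4 h, 2.27 after 8 h, 3.12 after 16 h (3.06 to 3.18) and 1.99 after 24 h (1.97 to 2.01). This pair therefore drew apart most at 16 h. Cyp4a12a to Cyp4a12b was 2.55, 3.72, 3.42, 3.65 and 2.14. Summed over the 6 members, the family made up 1354, 796, 1784, 1773 and 4958 CPM.

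Cells differ in depth, so each was thinned to 1000 UMIs before counting how many held a member's UMI. Cyp4a14 was found in 44.5% of fed hepatocytes (43.4 to 45.6), 28.4% after 4 h, 61.6% after 8 h, 58.5% after 16 h and 80.1% after 24 h (78.9 to 81.2). Cyp4a10 was found in 30.3% of fed hepatocytes (29.2 to 31.3), 18.01% after 4 h, 37.7% after 8 h, 27.5% after 16 h and 61.1% after 24 h (59.6 to 62.5). Both shares were lowest at 4 h and highest at 24 h, as the levels were. Cyp4a12a was found in 12.4% of fed cells, in 10.8, 15.1 and 14.5% at 4, 8 and 16 h, and in 2.19% at 24 h (1.78 to 2.65). Cyp4a12b was found in 5.65% of fed cells and 0.983% at 24 h (0.718 to 1.31). Without thinning, Cyp4a14 was found in 78.3% of fed cells and 94.2% at 24 h, and Cyp4a12a in 37.7 and 12.6%. Thinning left out 0, 4, 25, 122 and 0 cells of the 5 libraries.

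Free RNA in a droplet library gives UMIs in cells that do not express a gene. Barcodes with UMIs of at least 3 of 8 endothelial markers, a cell type that should lack Cyp4a, served as the background. There were 307, 11, 19, 77 and 47 of them, 190, 10, 11, 67 and 36 of which also met the hepatocyte rule. In these, thinned alike, Cyp4a14 was found in 11.1% (7.79 to 15.1) in the fed library, 26.8% (16.9 to 38.6) at 16 h and 53.2% (38.1 to 67.9) at 24 h, and Cyp4a10 in 9.12% (6.15 to 12.9), 9.86% (4.06 to 19.3) and 40.4% (26.4 to 55.7). At this thinning the hepatocyte shares were above these at all 3 times, and the background share was itself higher at 24 h. Thinned to 2000 UMIs, the 16 h background was above the hepatocytes for Cyp4a14 and close below them for Cyp4a10: Cyp4a14 was found in 19 of 22 endothelial-like barcodes (86.4%, 65.1 to 97.1) and in 74.0% of hepatocytes, and Cyp4a10 in 40.9 and 43.9%. At 16 h, thinning to 2000 UMIs left out 55 of the 77 endothelial-like barcodes, and thinning to 1000 left out 6. The 2 settings thus read different barcodes, and 67 of the 77 also met the hepatocyte rule. Whether the 16 h shares stand above background cannot be told from these values. At 0 and 24 h, with 200 and 0 such barcodes left out, the hepatocyte shares stayed higher at 2000 UMIs too (for Cyp4a14, 67.3 against 28.0% and 91.7 against 70.2%). The 4 and 8 h backgrounds rested on 11 and 19 barcodes and were 18.2 and 0% for Cyp4a14. A count of 0 of 19 barcodes allows a share of up to 15.8% by the limit of 3 counts (exact upper bound 17.6%), without thinning the same barcodes held Cyp4a14 in 21.1%, and for Cyp4a14 at 4 h the interval (2.28 to 51.8) included the hepatocyte share. Cyp4a12a was found in 2.93% (1.35 to 5.49) of the fed background barcodes. For Cyp4a12a at 24 h the background was 0 of 47 barcodes, which allows a share of up to 6.38% by that limit (exact upper bound 7.55%) and does not separate it from the hepatocyte share of 2.19%. Median non-mitochondrial depth was 1764 in the fed endothelial-like barcodes and 3604 at 24 h, beside 4702 and 7202 in the hepatocytes. Alb stood at 28482 CPM in the fed endothelial-like barcodes and at 45016 CPM at 24 h. Cyp4a10 stood there at 151 and 1188 CPM and Cyp4a14 at 239 and 2569 CPM, so that at 24 h these barcodes came closer to the hepatocyte levels of 1641 and 3267 CPM than in the fed library. The part of this background in the hepatocyte levels was not tested.

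**Figure D2:**
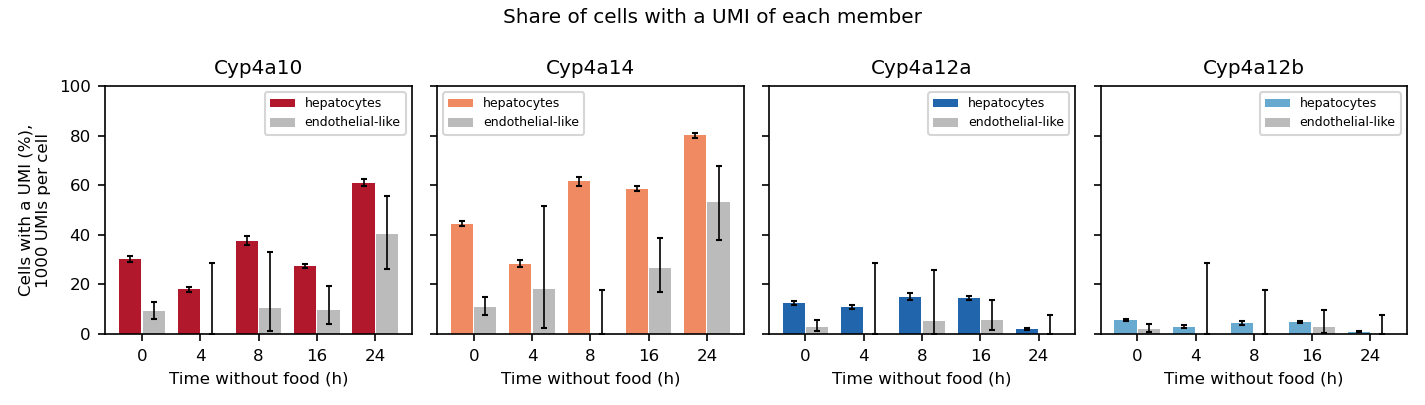
Percent of cells with at least 1 UMI of each member after thinning to 1000 UMIs, for hepatocytes (coloured) and endothelial-like barcodes (grey) at each time without food (h), with exact 95% binomial bars. Cyp4a14 is found in 44.5% of fed and 80.1% of 24 h hepatocytes, and the grey bars are higher at 24 h too, at 53.2%.

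The spread over cells was read in thinned cells. The variance-to-mean ratio (Fano factor, which is 1 for pure counting and tends to grow with the mean where cells differ) of Cyp4a14 was 1.5 in the fed library, 1.42 after 4 h, 1.41 after 8 h, 1.64 after 16 h and 2.43 after 24 h. That of Cyp4a10 was 1.18, 1.29, 1.14, 1.31 and 1.94. The cells richest in Cyp4a14 that together held 50% of its UMIs were 12.8% of cells in the fed library, 8.72% after 4 h, 17.8% after 8 h, 15.6% after 16 h and 20.3% after 24 h. For Cyp4a10 they were 10.7, 6.84, 12.3, 8.95 and 15.9%. The higher Fano factor at 24 h thus went with a higher mean and with UMIs held by more of the cells. At least 5 Cyp4a14 UMIs were found in 23.0% of thinned cells at 24 h and in 0.882% of fed cells. Cyp4a10 and Cyp4a14 occurred together in 16.0, 7.54, 25.6, 19.5 and 53.8% of thinned cells, which is 1.19, 1.47, 1.10, 1.21 and 1.10 times the product of the single shares. Cyp4a14 and Cyp4a12a, which went opposite ways in level at 24 h, still occurred together in 1.99% of cells then, 1.14 times the product of their shares. Cyp4a12a and Cyp4a12b occurred together in 0.958, 0.570, 0.520, 1.11 and 0.109% of thinned cells, beside products of 0.703, 0.330, 0.650, 0.703 and 0.0215%. This is 1.36, 1.73, 0.800, 1.58 and 5.08 times the product, the last resting on the smallest share.

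Depth was tied to the levels at 24 h. Split into 3 equal parts by depth within the library, the shallowest cells at 24 h had 721 CPM of Cyp4a10 and 1580 CPM of Cyp4a14, and the deepest had 1779 and 3359 CPM. In the fed library the same parts had 329 and 424 CPM of Cyp4a10 and 717 and 653 CPM of Cyp4a14. In both the shallowest and the deepest part, the 24 h level of both genes was above the fed level.

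Hepatocytes were next ordered by zone. Within a lobule, blood flows from the portal to the central vein and hepatocyte programs differ along that path. Cyp2e1 marks cells near the central vein and Cyp2f2 cells near the portal tract, so the cells of each library were ordered by the difference of their log levels and split into 3 equal parts. This is an order by RNA, not a measured position. Against each other, the central end and the portal end were held to the same 2-fold rule.

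In the fed library Cyp4a10 was at 521 CPM at the central end and 373 at the portal end (log2 portal to central -0.48, -0.54 to -0.42), Cyp4a14 at 886 and 691 (-0.36), Cyp4a12a at 205 and 147 (-0.48) and Cyp4a12b at 76.7 and 57.6 (-0.41). All 4 were thus modestly higher at the central end, 0 of 4 by 2-fold, where 1.73% of 2837 genes were (and 0.599% toward the portal end). At 4 h the ends stood further apart. They did so too for Glul and Hal, a central and a portal landmark not used to order the cells. Their log2 portal to central ratios were -0.97 and 1.18 in the fed library and -2.91 and 2.20 at 4 h. Whether the members' gradients changed beyond this was not tested. Cyp4a10 was at 484 CPM centrally and 143 portally (-1.76, -1.83 to -1.70), Cyp4a14 at 728 and 303 (-1.26), Cyp4a12a at 236 and 94.6 (-1.32) and Cyp4a12b at 64.0 and 26.9 (-1.25). All 4 were at least 2-fold higher centrally, where 2.53% of 2805 genes were and 1.53% were that much higher portally, and they held ranks 36, 53, 49 and 55 among the most central genes. Of these 4, Cyp4a10 alone stayed past 2-fold in every alternative run. With 2 to 15% mitochondrial UMIs Cyp4a14 was at 350 CPM centrally and 280 portally at 4 h, a ratio no steeper than its 860 and 678 in the fed library. In the deeper cells (at or above the library's median depth) Cyp4a14 was at 590 and 302 CPM, Cyp4a12a at 176 and 93.5, and Cyp4a12b at 46.5 and 26.5, below the minimum. As a mean over cells the log2 ratios were -0.73 for Cyp4a14, -0.77 for Cyp4a12a and -0.76 for Cyp4a12b. Against fed, Cyp4a10 at 4 h differed by -0.10 on the log2 scale at the central end, -1.08 in the middle and -1.39 at the portal end. Cyp4a14 differed by -0.28, -0.90 and -1.19, and Cyp4a12b by -0.26, -1.39 and -1.10. Cyp4a12a differed by 0.20 at the central end, -0.62 in the middle and -0.64 at the portal end. The small central differences depended on the cells kept. With 2 to 15% mitochondrial UMIs the central end held 529 CPM of Cyp4a10 fed and 275 at 4 h, and 205 and 135 CPM of Cyp4a12a, and in the deeper cells Cyp4a10 was at 523 and 367.

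At 8 h the members' gradients were shallow, and Glul (-0.97) and Hal (1.14) were near their fed ratios. Cyp4a10 was at 566 CPM centrally and 474 portally, Cyp4a12a at 202 and 153, and Cyp4a14 at 1163 and 1112. None of the 4 members differed by 2-fold, where 1.44% of 2704 genes were that much higher centrally and 0.444% portally. The signs for Cyp4a14 (-0.064) and Cyp4a12b (-0.36) turned under some alternatives. At 16 h the central end was again the higher one, and Glul and Hal stood at -3.11 and 1.77. Cyp4a10 was at 602 CPM centrally and 260 portally (-1.21, -1.28 to -1.15) and Cyp4a12a at 293 and 129 (-1.18, -1.27 to -1.09), both past 2-fold, as 2.33% of 2877 genes were (and 0.904% toward the portal end). Cyp4a14, at 1697 and 904 CPM (-0.91), and Cyp4a12b, at 78.5 and 40.2 CPM (-0.97), were just short of it. These calls moved with the axis: in 2 equal parts of the cells Cyp4a10 and Cyp4a12a fell short (-0.88 and -0.81), and with the axis from the landmark lists Cyp4a14 passed (1731 and 764 CPM, -1.18). Against fed, Cyp4a14 at 16 h differed by 0.94 centrally and 0.39 portally on the log2 scale, and Cyp4a10 by 0.21 centrally and -0.52 portally.

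At 24 h the central end was not the higher one for Cyp4a10 and Cyp4a14. Nor was it for Glul, at 46.6 CPM centrally and 55.0 portally, while Cyp1a2, another central landmark, was at 63.2 and 10.3. The median Cyp2e1 and Cyp2f2 levels at that central end were both 4.50 per 10000 UMIs. Cyp4a10 was at 1471 CPM centrally and 1754 portally (0.25, 0.22 to 0.29) and Cyp4a14 at 2687 and 3645 (0.44, 0.42 to 0.46), neither past 2-fold, where 5.77% of 2739 genes were at least 2-fold higher centrally and 0.329% portally. Both were past 2-fold toward the portal end with 2 to 15% mitochondrial UMIs (526 and 1611 CPM of Cyp4a10, 1020 and 3323 of Cyp4a14) and with 0 to 30% (666 and 1644, 1250 and 3333). Against fed, Cyp4a10 was higher by 1.5 centrally and 2.23 portally on the log2 scale, and Cyp4a14 by 1.60 and 2.40. The central increase depended on the cells kept: with 2 to 15% mitochondrial UMIs the central end held 529 CPM of Cyp4a10 fed and 526 at 24 h, and 860 and 1020 CPM of Cyp4a14, and with 0 to 30% it held 439 and 666 CPM of Cyp4a10 and 725 and 1250 CPM of Cyp4a14. Cyp4a12a, at 24.2 and 32.0 CPM, and Cyp4a12b, at 8.97 and 14.4 CPM, were below the minimum at both ends and below fed in all 3 parts, with log2 ratios of -3.09, -2.43 and -2.20 for Cyp4a12a from the central to the portal end and -3.10, -2.06 and -2.01 for Cyp4a12b.

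The small portal excess of Cyp4a10 at 24 h turned to a log2 ratio of -0.14 when only the cells at or above the median depth were kept. Those deeper cells held 1918 CPM of Cyp4a10 centrally and 1742 portally, with 3498 and 3613 CPM of Cyp4a14. In the shallower cells both passed 2-fold portally, Cyp4a10 at 743 CPM centrally and 1636 portally and Cyp4a14 at 1532 and 3601. The size of the portal excess at 24 h therefore rests on which cells are kept. Median depth differed along the axis: 2769 non-mitochondrial UMIs per cell centrally and 9031 portally after 24 h, 2599 and 15076 after 4 h, 2531 and 5003 in the fed library, 9858 and 14017 after 8 h, and 3353 and 3688 after 16 h. At 4 h the deeper cells alone had 367 CPM of Cyp4a10 centrally and 145 portally, and at 16 h 574 and 271. The landmark itself changed. The median Cyp2e1 level at the central end was 26.3 per 10000 UMIs in the fed library. It was 59.6 after 4 h, 29.97 after 8 h, 59.5 after 16 h and 4.50 after 24 h. Glul at the central end stood at 316, 261, 106, 253 and 46.6 CPM at 0, 4, 8, 16 and 24 h. There Hal was at 176 CPM fed and 705 at 24 h, and Cyp1a2 at 413 and 63.2. By these genes the 24 h central end was unlike the fed one. Whether the central end spans the same cells in every library was not tested.

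Split into 5 equal parts, the fed, 4, 8 and 16 h libraries had the highest level of all 4 members in the most central part. For Cyp4a12a this part held 262, 273, 243 and 369 CPM, and the next 125, 140, 143 and 157 CPM. The step was mostly between the first and the second part, and the remaining parts were nearly flat in the fed library (125 to 151 CPM). At 24 h the highest level of Cyp4a10 and Cyp4a14 was in the most portal part, at 1786 and 3755 CPM.

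**Figure D3:**
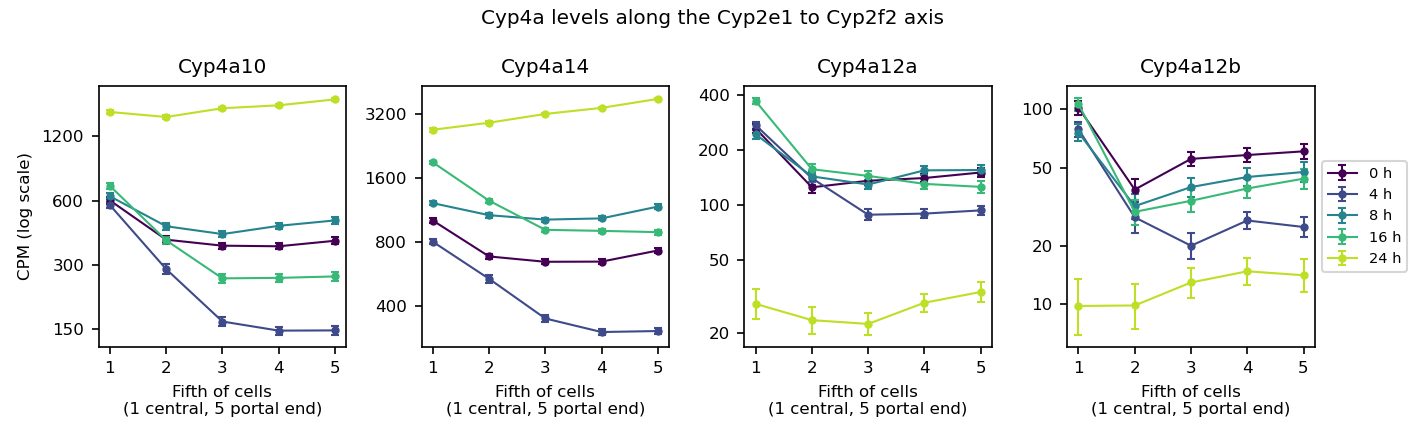
Level of 4 members (CPM, log axis) in 5 equal parts of the cells of each library, from the Cyp2e1-rich central end (1) to the Cyp2f2-rich portal end (5), with exact 95% counting bars and 1 line per time without food. The first part is highest at 0, 4, 8 and 16 h, as for Cyp4a12a at 262, 273, 243 and 369 CPM, and the 24 h lines are flat or lean to the portal end.

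At 16 h the members also varied with the acute-phase level of the cell, the summed UMIs of Saa1, Saa2, Saa3, Lcn2 and Orm2, genes of the response to inflammation. Split into 3 equal parts by that sum, Cyp4a12a was at 80.9 CPM in the low cells, 188 in the middle and 269 in the high cells. Cyp4a14 was at 803, 1106 and 1506 CPM, Cyp4a10 at 292, 363 and 444, and Cyp4a12b at 44.2, 48.2 and 57.1. The high cells were more often central, making up 1411 of the 3042 central-end cells and 782 of the 3041 portal-end cells. Within the central end Cyp4a12a was still at 137 CPM in low and 366 in high cells, and within the portal end at 64.1 and 185. Cyp4a14 was at 1398 and 1852 CPM centrally and at 642 and 1255 portally. For Cyp4a10 the central values were close, 611 in low and 596 in high cells, while the portal values were 200 and 323 CPM. At 4 h the order was the other one for Cyp4a10, with 301 CPM in low and 151 in high cells, and low cells were there the more central (683 of 1523). In the other libraries the low and high parts lay closer together, as for Cyp4a14 at 684 and 711 CPM in the fed library, 1065 and 1083 at 8 h, and 3235 and 3280 at 24 h.

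Other genes of the route were read from lists. Each list is described by its counts and median, with no test, and some of its genes by their values. The partners of omega-oxidation are the electron donors, the other CYP4 enzymes and the dehydrogenases that follow. Of those measured, 2 of 10 were at least 2-fold higher and 0 lower after 4 h, 2 of 9 higher and 1 lower after 8 h, 2 of 11 higher and 0 lower after 16 h, and 2 of 9 higher and 0 lower after 24 h. The shares of all genes at least 2-fold higher were 5.73, 7.95, 3.31 and 6.68%, and 5.97, 11.8, 4.04 and 10.6% were that much lower, so the 1 of 9 lower at 8 h is near the share of all genes. The list's median log2 ratio at 24 h was -0.18, beside -0.027 over all genes. Por, the reductase that passes electrons to every microsomal P450, was at 159 CPM in the fed library, 400 after 4 h, 738 after 8 h, 171 after 16 h and 516 after 24 h. Its levels went up and down across the libraries, with a log2 ratio to fed of 2.21 at 8 h and 1.70 at 24 h. Cyp4f15, a CYP4 enzyme of another subfamily, was at 44.6, 78.7, 108, 54.2 and 93.5 CPM, and Cyp4f14 at 170, 236, 258, 145 and 102 CPM. Adh1, an alcohol dehydrogenase, was the lowest of the list at 24 h, at 572 against 1139 CPM in the fed library. Adh4 was the highest after 16 h, at 70.9 against 31.9 CPM, and Aldh3a2, the fatty aldehyde dehydrogenase, was at 39.5 CPM in the fed library, 82.8 after 4 h, 40.2 after 8 h, 87.4 after 16 h and 35.1 after 24 h.

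Genes of the peroxisomal steps that shorten dicarboxylic acids were higher at 24 h in 4 of 13 measured and lower in 0, with a list median of 0.64, beside 6.68% higher, 10.6% lower and a median of -0.027 over all genes. At 4, 8 and 16 h the counts were 1 of 12, 1 of 11 and 2 of 12, with 0 lower each time and medians of 0.42, 0.21 and 0.45. All genes then had shares of 5.73, 7.95 and 3.31% higher and 5.97, 11.8 and 4.04% lower, with medians of -0.027, -0.042 and 0.0011, so that the single gene higher at 4 and at 8 h is near the share of all genes. The highest at 24 h was Acot3, a peroxisomal thioesterase, at 7.81 CPM in the fed library, 11.6, 6.21 and 30.1 at 4, 8 and 16 h, and 137 at 24 h (log2 ratio 4.13). Acot4, the thioesterase for dicarboxylic acyl-CoAs, was at 40.5, 63.1, 45.3, 90.9 and 174 CPM. Both were highest at 24 h, as Cyp4a10 and Cyp4a14 were, but neither was lowest at 4 h. Pex11a, which helps peroxisomes divide, was the highest at 4 and 8 h (83.1 and 108 CPM against 33.9 in the fed library). Crot, which moves shortened acids out of the peroxisome as carnitine esters, was the highest at 16 h (998 against 279 CPM). Ehhadh, an enzyme of peroxisomal beta-oxidation, had log2 ratios of 0.49, 0.74, 0.48 and 0.84.

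Other PPARα-responsive genes did not share 1 time course. Of those measured, 1 of 12, 3 of 13, 3 of 12 and 3 of 12 were at least 2-fold higher at 4, 8, 16 and 24 h, with 0 lower each time and medians of 0.26, 0.54, 0.47 and 0.65. Beside the all-gene shares of 5.73, 7.95, 3.31 and 6.68% higher, the 1 of 12 at 4 h is near the background. Angptl4, a secreted inhibitor of lipoprotein lipase, was the highest in all 4 comparisons, at 9.34, 130, 333, 79.2 and 136 CPM at 0, 4, 8, 16 and 24 h. It peaked at 8 h, where Cyp4a10 was at 480 CPM, little above its fed level. Cpt1a, the gate of mitochondrial fatty acid entry, was at 129, 209, 237, 315 and 440 CPM and was higher at each later time, without the 4 h low of the Cyp4a pair. Ppara itself was at 57.2 CPM in the fed library, 95.5 after 4 h, 79.4 after 8 h, 95.8 after 16 h and 134 after 24 h. Ppara was above its fed level at 4 h, when Cyp4a10 and Cyp4a14 were below theirs.

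Growth-hormone and androgen dependent male liver genes were lower at 24 h in 5 of 8 measured and higher in 0, with a list median of -1.26, where 10.6% of all genes were at least 2-fold lower. At 4, 8 and 16 h the counts were 2 higher and 2 lower of 10, 3 and 1 of 10, and 1 and 1 of 10, with medians of -0.39, 0.031 and -0.029. All genes then had 5.73, 7.95 and 3.31% higher and 5.97, 11.8 and 4.04% lower, so the 1 lower at 8 h is near the share of all genes. The 5 at 24 h were Selenbp2, at 163 CPM in the fed library and 10.7 at 24 h, Slco1a1, a bile acid and steroid transporter, at 283 and 31.2, Cyp2u1 at 122 and 35.7, Cyp7b1, an oxysterol hydroxylase, at 151 and 62.5, and Mup20, a male urinary protein, at 15541 and 6548. Hsd3b5, a male-specific steroid enzyme, was below the minimum in the comparison of 24 h with fed, at 26.5, 8.15, 32.0, 50.6 and 0.213 CPM. Not every gene of the list was at least 2-fold lower: Cyp2d9 had a log2 ratio of -0.73 and Igf1, the main growth hormone target, 0.33. Elovl3, the highest of the list at 4, 8 and 16 h, was at 6.46, 234, 798, 61.4 and 14.96 CPM.

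**Figure D4:**
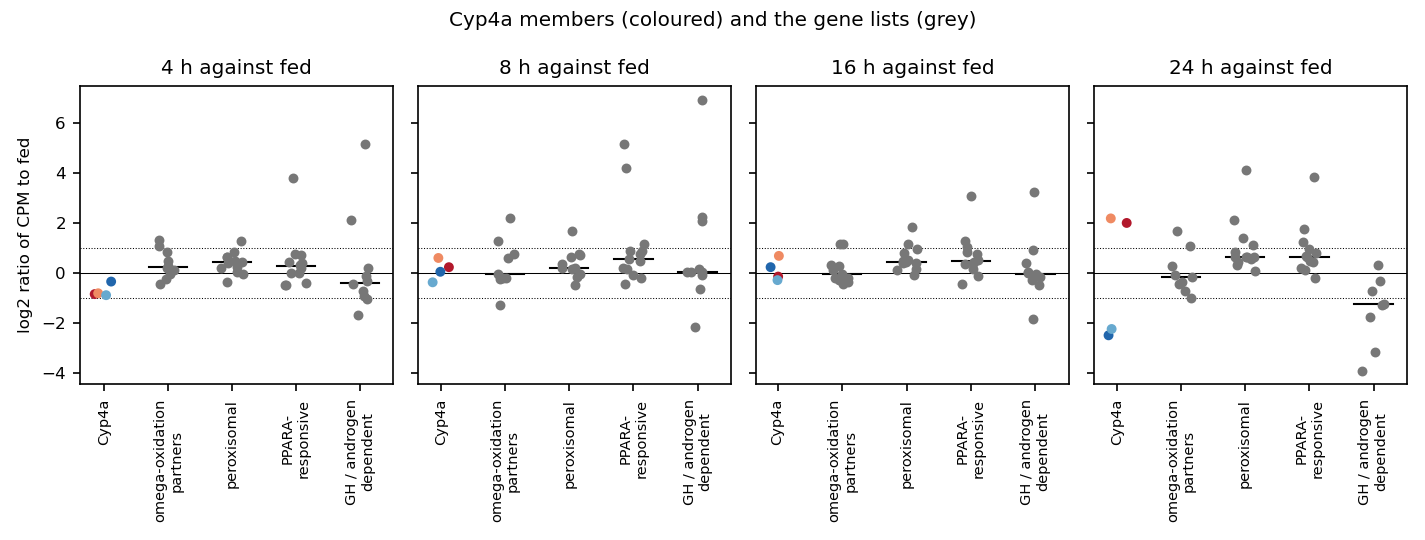
log2 ratio of CPM to the fed library for Cyp4a members (coloured as in the plot of levels) and for the genes of 4 lists (grey) with at least 50 CPM in either library, 1 panel per fasting time, with a black bar at each list's median and dotted lines at 2-fold. At 24 h Cyp4a10 and Cyp4a14 stand at 2.0 and 2.18, and Cyp4a12a and Cyp4a12b at -2.51 and -2.25 beside the growth-hormone and androgen list (GH in the axis label), whose median is -1.26.

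The genes whose time course was most like a member's were found by the root mean square difference of log2(CPM + 5), centred over the 5 libraries, among 3289 genes with at least 50 CPM in any library. Over only 5 libraries this is a description of shape. Cyp4a10 and Cyp4a14 differed from each other by 0.30. The nearest other gene to Cyp4a10 was Rgs16, a regulator of G-protein signalling, at 0.39, with 35.9, 27.1, 60.8, 29.5 and 104 CPM. The next were Retsat, a retinol saturase, at 0.40, Trim24 at 0.48, Apoa4 at 0.50 and Lars2 at 0.52. Retsat, at 343, 269, 298, 344 and 895 CPM, was the nearest to Cyp4a14, at 0.51, followed by Rgs16, G0s2, Trim24 and Gm33543 at 0.53, 0.54, 0.55 and 0.57.

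Cyp4a12a and Cyp4a12b differed from each other by 0.35, and both had nearer genes outside the family. For Cyp4a12a the nearest was Egfr, the epidermal growth factor receptor, at 0.17, with 376, 317, 394, 393 and 94.4 CPM. Slco1a1, Gulo, C6 and Cyp1a2 followed at 0.25, 0.27, 0.31 and 0.36. Gulo and Cyp1a2 are central-zone genes fixed here as landmarks, and Gulo stood at 90.1, 86.9, 84.6, 142 and 10.2 CPM. For Cyp4a12b the nearest were Tubb5 at 0.19, Slc30a10 at 0.23, Ces3a at 0.24, Egfr at 0.24 and Aars at 0.24. All of these were lowest at 24 h.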

How the data were processed

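Droplet 3′ single-cell RNA sequencing measured hepatocytes of 5 libraries, 1 per time point. The deposited UMI counts per gene and barcode are whole numbers, not normalised, that the authors made with Cell Ranger 6.0.1 on mm10, per the submitters' processing notes. Each library holds 10000 barcodes.

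Hepatocytes had at least 1000 UMIs, 500 genes and 2 to 30% UMIs from the 13 mitochondrial (mt-) genes; no doublet caller was run, and leaving out the 5% of barcodes with most UMIs was an alternative. UMIs were summed per library and divided by the non-mitochondrial total (33521626 to 45532684), which sets the counting intervals (exact Poisson for CPM, Clopper-Pearson for shares, conditional binomial for ratios). With 1 library per time point no test or p-value was computed. A gene was counted as different at 2-fold or more with at least 50 CPM in either library. On simulated 24 h against fed data over 32272 genes, this rule recovered 198 of 200 genes changed 4-fold and called 0 of 2492 unchanged genes. The simulation holds counting noise only and says nothing of how libraries of 1 time point would vary.

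Members, lists and settings were chosen with earlier results of these data known. Named genes are the 6 members, the highest and lowest of each list per comparison with others by role, chromosome neighbours, and the 5 genes nearest each member in shape (some list genes are not reported here); the male genes lower at 24 h and Hsd3b5 were also named after their values were seen, and the split of acute-phase parts by axis end was added then. GENCODE M21 held 32235 of the 32285 gene IDs (99.8%). Sums used pandas 2.3.3 and NumPy 2.4.6, intervals SciPy 1.17.1, figures matplotlib 3.10.9 (Python 3.11.15), and edgeR 4.0.16 in R 4.3.3 gave the trimmed-mean scaling only.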

Additional observations from a re-analysis of the deposited data

Results flagged for a closer look

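Barcodes that passed the UMI and gene minimums but had under 2% mitochondrial UMIs were kept out of the comparisons. They too held UMIs of Cyp4a10 and Cyp4a14. Cyp4a10 was at 158 CPM in these barcodes in the fed library and 257 CPM at 24 h, and Cyp4a14 was at 220 and 586 CPM. They numbered 2172 in the fed library and 5400 at 24 h. Their part in the results was not tested beyond the alternative that keeps them.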

How the results depend on the processing

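No paired analysis was possible because each time point is 1 library with no replicate number, and for the same reason no replicate could be left out. The calls of Cyp4a10, Cyp4a14, Cyp4a12a and Cyp4a12b at 24 h against fed held under all alternatives run: their log2 ratios spanned 1.61 to 2.18, 1.59 to 2.36, -2.88 to -2.33 and -2.80 to -2.08. At 4 h they spanned -1.51 to -0.42, -1.32 to -0.61, -0.91 to -0.075 and -1.54 to -0.68. Of 448 recomputed counts, of all genes and of members alike, 401 stayed within 1.5 times the main count and 47 did not. The cause was not tested. Member counts are small, and those of 0 that stayed at 0 are among the 401. The 401 is therefore no measure of how stable the all-gene counts are. Depth limits Cyp4a32 (13 to 34 UMIs per library) and the endothelial-like background at 4 and 8 h. The split by depth between libraries was chosen after seeing the data.

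The Cyp4a14 ratio of 16 to 8 h reversed to -0.098 with trimmed-mean scaling, -0.068 with median-of-ratios scaling, -0.0029 as a mean over cells, -0.013 after subtracting 20% free RNA and -0.063 in the shallower cells. The portal to central ratio of Cyp4a10 at 24 h reversed to -0.0093 with 5 to 30% mitochondrial UMIs, -0.11 with the axis from the landmark lists, -0.19 with those lists without Cyp2f2 and Cyp2e1, and -0.14 in the deeper cells, and that of Cyp4a14 reversed to -0.027 with the lists without Cyp2f2 and Cyp2e1. Both moved further the other way, to 1.61 and 1.70, with 2 to 15% mitochondrial UMIs. At 4 h the axis ratios spanned -1.95 to -1.25 for Cyp4a10, -1.40 to -0.32 for Cyp4a14, -1.54 to -0.77 for Cyp4a12a and -1.66 to -0.76 for Cyp4a12b. At 8 h the Cyp4a14 axis ratio reversed to 0.067 with 0 to 30% mitochondrial UMIs and 0.036 in the deeper cells, and that of Cyp4a12b to 0.18 with the landmark lists, 0.21 without Cyp2f2 and Cyp2e1, and 0.070 in the deeper cells.

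Among members, 2 were at least 2-fold lower from 16 to 24 h and 1 was with trimmed-mean or median-of-ratios scaling, all UMIs as the denominator, 2 to 15% or 0 to 30% mitochondrial UMIs, or the deeper cells. At 4 h against fed 0 were lower, but 1 (Cyp4a12b) was with all UMIs as the denominator and 3 with 2 to 15% mitochondrial UMIs. From 4 to 8 h 2 were higher and 1 was in the shallower cells. With a minimum of 10 CPM, 1 member (Cyp4a31) was higher at 16 h against fed and 1 from 8 to 16 h. No share of all genes was computed for the alternative settings, so their member counts have no background beside them.

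Over all genes, the counts at least 2-fold higher and lower were 169 and 176 at 4 h, 240 and 357 at 8 h, 99 and 121 at 16 h and 199 and 317 at 24 h against fed, 31 and 62 from 4 to 8 h, 346 and 298 from 8 to 16 h, and 225 and 207 from 16 to 24 h. Trimmed-mean scaling moved the median log2 ratio of all genes most at 8 h against fed, from -0.042 to 0.25, and gave 258 and 102 at 4 h, 397 and 237 at 8 h and 222 higher from 8 to 16 h. With all UMIs as the denominator 54 and 32 genes differed from 4 to 8 h. With 2 to 15% mitochondrial UMIs 347 were lower at 4 h, 63 and 133 differed from 4 to 8 h and 386 were higher from 16 to 24 h. With 0 to 30% mitochondrial UMIs 300 were higher at 24 h against fed, and 476 and 367 differed from 16 to 24 h. A mean over cells gave 47 higher from 4 to 8 h. Subtracting 20% free RNA gave 389 higher at 8 h, 156 higher at 16 h, and 137 and 117 from 4 to 8 h. The shallower cells gave 64 higher from 4 to 8 h, and 387 and 441 from 16 to 24 h. A minimum of 10 CPM gave 268 and 441 at 4 h, 420 and 830 at 8 h, 211 and 265 at 16 h and 348 and 645 at 24 h against fed, 79 and 146 from 4 to 8 h, 775 and 534 from 8 to 16 h, and 377 and 420 from 16 to 24 h.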
